A study of Drosophila melanogaster with 12 samples.

Results

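The genes described here are slp1, slp2, D, tll, erm, opa and scro, 7 transcription factors that mark successive ages of dividing neural progenitors in the Drosophila brain. They were chosen by name, and their rows were found by matching the table's FlyBase identifiers to an Ensembl annotation. Among the table's 12610 genes, 6 of the 7 were matched to a row. No row carried the annotation's current identifier for scro, and 221 identifiers of the table have no name in the annotation, so scro may be listed under an older one. It was not analysed here.

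The study measured RNA in cells dissociated from brains of larvae early in the third instar and sorted for green fluorescent protein (GFP), to profile cells that express Rfx. Rfx is a transcription factor best known for switching on genes of sensory cilia. There were 4 groups of 3 libraries each: Rfx knock-out (KO) GFP-positive cells, wild-type (WT) GFP-positive cells, KO GFP-negative cells and WT GFP-negative cells. The labels do not name the knock-out allele, the element that drives GFP or the sex of the larvae, and they do not say that replicates came from separate dissections, so p-values measure only the spread between these libraries. Each library was made from 4 ng of total RNA.

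Neuroblasts, the stem cells of the fly brain, express temporal transcription factors one after another, and each window yields neurons of another kind. In the medulla, the largest neuropil of the optic lobe, the series runs through Homothorax, Eyeless, Sloppy-paired, Dichaete and Tailless, with further factors such as Odd-paired, Earmuff and Scarecrow in between. The intermediate progenitors of type II neuroblasts, which lie in the central brain, run through a shorter series of their own, in which Dichaete, Grainyhead and Eyeless follow each other and Odd-paired acts early. Several of these factors stay on in some of the neurons that the progenitors leave behind.

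Values are the authors' normalised read counts, which were not scaled to equal column totals. The total was higher in every GFP-positive library than in any GFP-negative library. The reads behind these values could be recovered as whole numbers, 20301256 to 29771321 per library. Genes named for ribosomal RNA took 12.2% of the reads in WT GFP-positive replicate 2 and 2.54% in KO GFP-positive replicate 3, and 0.289% to 0.976% in the other 10 libraries. Rfx itself averaged 1126 ± 170 in KO GFP-positive cells against 2793 ± 217 in WT GFP-positive cells, and 53.0 ± 1.30 in KO GFP-negative cells against 73.7 ± 0.358 in WT GFP-negative cells (SD, n = 3 each). Rfx reads therefore remained in the KO libraries, most of them in the sorted GFP-positive cells. All 12 libraries are labelled as neurons. The summed level of 8 neuroblast markers was 50.8 to 68.2 in KO GFP-positive libraries and 47.5 to 51.7 in WT GFP-positive libraries, but 1507 to 1761 in KO GFP-negative libraries and 1312 to 1582 in WT GFP-negative libraries, so the GFP-negative libraries held RNA of neuroblasts beside that of neurons.

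Sloppy-paired is encoded by a pair of neighbouring fork head genes on chromosome arm 2L (build BDGP6). The gene slp1 (FBgn0003430) has a single exon at 3825675 to 3827099 on the plus strand, and slp2 (FBgn0004567), also a single exon, lies 9740 bases further on at 3836840 to 3839185 on the same strand. Both encode repressors known from embryonic segmentation, and in the medulla they define the middle window of the series. D (FBgn0000411), or Dichaete, a SoxB protein, lies on 3L at 14175610 to 14178620, minus strand. The nuclear receptor gene tll (FBgn0003720), or tailless, lies on 3R at 30852315 to 30854400, plus strand, and marks a late window, before the neuroblasts turn to making glia. The zinc finger gene erm (FBgn0031375), or earmuff, spans 2L from 1950239 to 1970362 on the minus strand and keeps intermediate progenitors from reverting to neuroblasts. A tRNA gene lies inside its span on the other strand without touching an exon. The zinc finger gene opa (FBgn0003002), or odd-paired, of the Zic family, lies on 3R at 4852813 to 4869979, plus strand.

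In wild type, 5 of the 6 genes were far lower in GFP-positive than in GFP-negative cells, and D was higher. The reduction was deepest for slp2, tll and slp1, at 22.1-fold, 14.7-fold and 11.2-fold, and shallower for opa and erm, at 2.87-fold and 2.80-fold. All 6 differences passed limma's test at an adjusted p under 0.05, where 12.3% of the 9912 genes tested were called lower and 25.7% were called higher. The median log2 change was -2.40 over the 6 genes and 0.09 over all genes tested. Other cell type markers moved with the fraction in WT as well: 6 of 9 neuron markers were called higher and 0 lower by limma, 4 of 5 eye disc markers higher and 1 lower, 2 of 4 hemocyte markers higher and 0 lower, and 1 of 8 glial markers higher and 4 lower. The eye disc sum was 893 to 943 in WT GFP-positive libraries and 176 to 243 in WT GFP-negative libraries, with so, eya and gl at log2 changes of 3.13, 2.48 and 2.88. The 1 that was lower, ro, had 1.33, 1.25 and 1.75 in WT GFP-positive libraries, against 3.74, 4.10 and 4.29 in WT GFP-negative libraries. Its log2 change was -1.05 (limma adjusted p = 0.00107). The hemocyte sum was 85.9 to 192 in WT GFP-positive libraries and 24.4 to 48.3 in WT GFP-negative libraries, led by Col4a1 at 2.65 and Pxn at 1.69, while Hml, NimC1 and srp averaged 2.44, 0.507 and 0.665 in WT GFP-positive cells. The neuron count depended on the tool, with 3 of 9 called higher and 0 lower by edgeR and 5 higher and 1 lower by DESeq2. The neuron marker elav had 559, 667 and 526 in WT GFP-positive libraries, against 658, 704 and 615 in WT GFP-negative libraries. The part of these cell type markers in the fraction differences was not tested. In these bulk libraries a smaller share of cells that express a gene and less RNA per cell cannot be told apart.

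**Figure D1:**
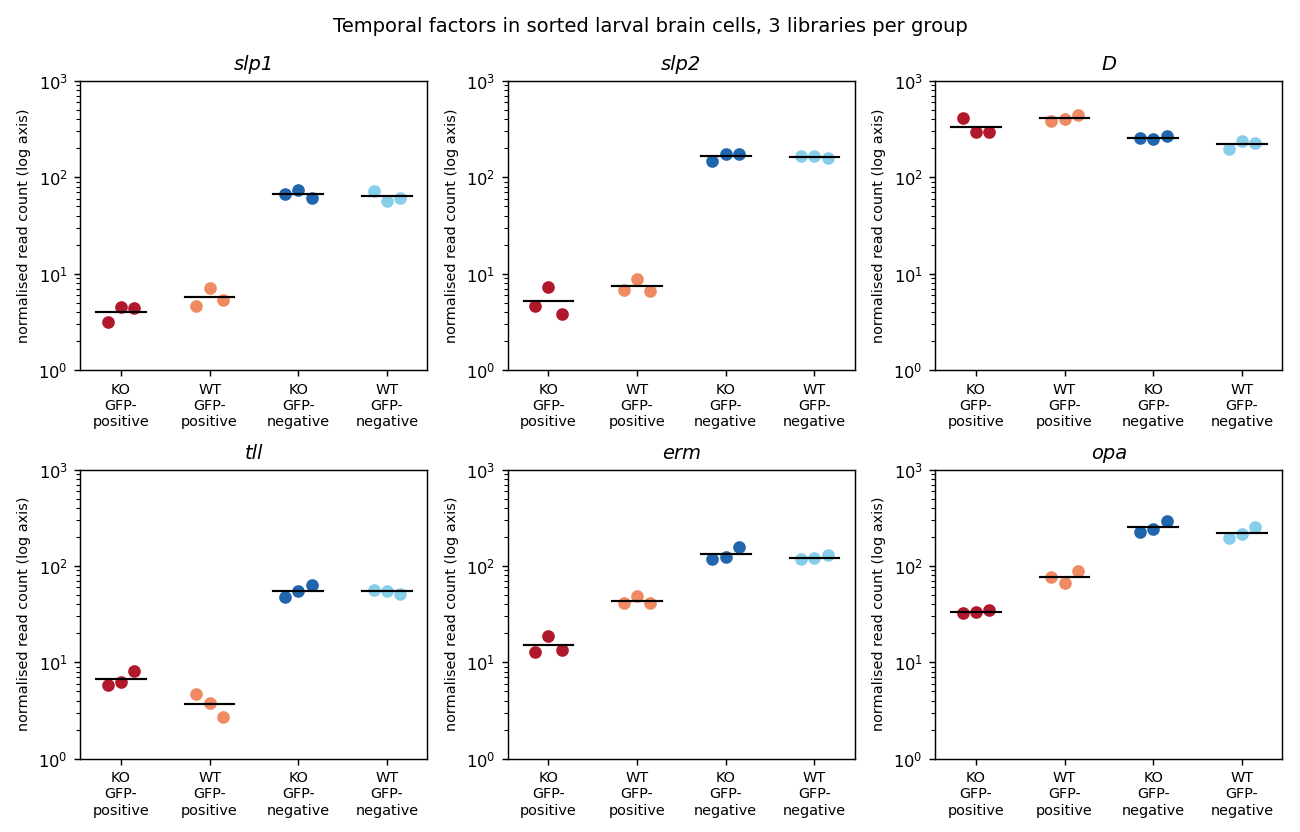
Normalised read count of each gene on a log axis in KO GFP-positive, WT GFP-positive, KO GFP-negative and WT GFP-negative libraries. Each point is 1 library and each bar the mean of 3. The slp1, slp2 and tll points of GFP-positive cells all sit below 10, the erm and opa points of KO GFP-positive cells sit below those of WT GFP-positive cells, and D is the gene whose GFP-positive points sit above the GFP-negative ones.

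For slp1, the WT GFP-positive libraries had 4.60, 7.15 and 5.35 normalised reads, against 72.5, 56.7 and 61.7 in WT GFP-negative libraries. The log2 change was -3.28 ± 0.17 (SE; limma adjusted p = 2.08e-08). For slp2, the WT GFP-positive libraries had 6.79, 8.73 and 6.65, against 165, 167 and 158 in WT GFP-negative libraries. Every GFP-positive library lay far below every GFP-negative one for both genes, a separation seen for 15.2% of genes tested in that direction and 33% in the other, and the slp2 log2 change of -4.30 ± 0.18 (limma adjusted p = 3.42e-09) was undercut by 36 of the genes tested. The slp1 reads left in GFP-positive libraries were few, 128 to 154 per WT library.

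For tll, the WT GFP-positive libraries had 4.67, 3.76 and 2.68, against 56.6, 55.1 and 51.8 in WT GFP-negative libraries. The log2 change was -3.58 ± 0.18 (limma adjusted p = 1.39e-08). These levels rest on 72 to 130 reads per WT GFP-positive library. As a share of the GFP-negative mean, the GFP-positive level was 8.96% for slp1, 4.53% for slp2 and 6.79% for tll. Among the neuroblast markers, dpn, ase, wor, mira and insc kept 1.33% to 3.87% of their GFP-negative level in WT. The other 3 are stg at 6.56%, N at 7.10% and CycE at 8.60%. The shares of slp2 and tll thus lie within the range of the 8 neuroblast markers, and that of slp1 just above it. Whether those reads come from sorted GFP-positive cells or from other cells carried into the sort was not tested.

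The progenitor factors erm and opa kept more of their level in wild-type GFP-positive cells. For erm, the WT GFP-positive libraries had 41.4, 49.0 and 40.9, against 118, 120 and 130 in WT GFP-negative libraries, a log2 change of -1.47 ± 0.15 (limma adjusted p = 8.43e-06). For opa, the WT GFP-positive libraries had 76.5, 67.0 and 88.7, against 198, 213 and 256 in WT GFP-negative libraries, a log2 change of -1.51 ± 0.13 (limma adjusted p = 2.27e-06). The groups do not overlap for either gene, as for 15.2% of genes tested in that direction and 33% in the other. GFP-positive cells held 35.7% of the GFP-negative erm level and 34.8% of the opa level. Both shares lie above those of all 8 neuroblast markers. They lie below the WT medians of 42.1% over 10 genes of type II neuroblasts and intermediate progenitors and 44.7% over 10 other medulla factors.

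D went the other way. The WT GFP-positive libraries had 388, 407 and 441 normalised reads, against 196, 241 and 226 in WT GFP-negative libraries. The fold was 1.87 and the log2 change 0.90 ± 0.13 (limma adjusted p = 0.000145), and the groups do not overlap. Such a separation was common, with 33% of genes tested above and 15.2% below in WT GFP-positive libraries. The Sox paralogs of D did not move as one. Of 6 tested, 1 was called higher and 2 lower in WT, beside 25.7% and 12.3% of all genes tested. The one that was higher is Sox21b, with a log2 change of 2.37 ± 0.13 (limma adjusted p = 3.37e-08), while SoxN, itself an early factor of the medulla series, was lower at -0.62 ± 0.10 (limma adjusted p = 0.000263).

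In the Rfx knock-out slp1, slp2, tll, erm and opa were again lower in GFP-positive cells, against a background of 12.9% of genes called lower and 23.6% called higher in KO. For slp1, the KO GFP-positive libraries had 3.18, 4.54 and 4.35, against 67.4, 73.4 and 61.0 in KO GFP-negative libraries, 16.7-fold lower (limma adjusted p = 7.70e-09). For slp2, the KO GFP-positive libraries had 4.64, 7.21 and 3.80, against 147, 173 and 175 in KO GFP-negative libraries, 31.6-fold lower (limma adjusted p = 1.80e-09). Only 7 of the genes tested had a lower log2 change than slp2, which was -4.77 ± 0.18. For tll, the KO GFP-positive libraries had 5.80, 6.23 and 8.23, against 47.8, 55.4 and 62.9 in KO GFP-negative libraries, 8.20-fold lower (limma adjusted p = 1.12e-07).

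For erm, the KO GFP-positive libraries had 12.8, 18.8 and 13.6, against 118, 125 and 156 in KO GFP-negative libraries, 8.86-fold lower (log2 change -3.07 ± 0.15; limma adjusted p = 1.28e-08). For opa, the KO GFP-positive libraries had 32.7, 33.1 and 35.1, against 228, 241 and 292 in KO GFP-negative libraries, 7.54-fold lower (log2 change -2.87 ± 0.13; limma adjusted p = 8.24e-09). Both genes thus stood further below their GFP-negative level in KO than in WT, with shares of 11.3% for erm and 13.3% for opa. The median log2 change of the 6 genes in KO was -2.97, and that of all genes tested 0.07. The markers moved with the fraction in KO too. By limma, 8 of 9 neuron markers were called higher and 0 lower, and 8 of 8 neuroblast markers were called lower. Of the 5 eye disc markers 4 were called higher and 1, ro, lower (log2 change -1.18). The part of these markers was not tested.

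D had 410, 294 and 298 in KO GFP-positive libraries, against 259, 248 and 269 in KO GFP-negative libraries. The groups do not overlap, which 30.3% of genes tested showed with the KO GFP-positive libraries above and 18.1% with them below, but KO GFP-positive replicate 1 stands well above the other 2. The log2 change was 0.35 ± 0.13 and just missed the threshold (limma adjusted p = 0.0501).

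**Figure D2:**
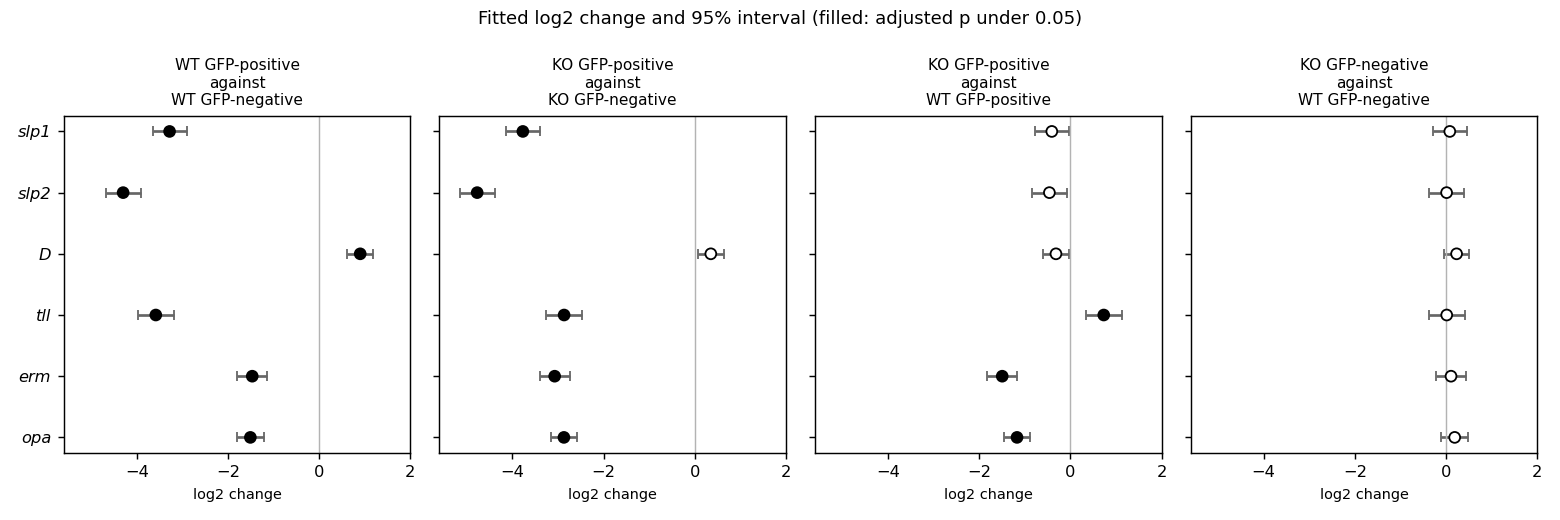
Log2 change of each gene with its 95% confidence interval in the comparisons of fraction and of genotype, filled where the adjusted p is under 0.05. Between the fractions slp2 lies furthest below 0 in KO (-4.77) and in WT (-4.30) and D lies above 0, and in the genotype comparison of GFP-positive cells erm (-1.50) and opa (-1.17) lie furthest below 0.

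The Rfx knock-out was next compared with wild type within GFP-positive cells. There erm and opa fell, by 2.91-fold and 2.30-fold, tll was the 1 gene called higher, and slp1, slp2 and D did not pass the test. Across all genes tested 1.32% were called lower and 1.75% higher. The median log2 change was -0.43 over the 6 genes and 0.01 over all genes tested.

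The erm values were 12.8, 18.8 and 13.6 in KO GFP-positive libraries, against 41.4, 49.0 and 40.9 in WT GFP-positive libraries. The highest KO library was below the lowest WT library by a wide margin, where 5.94% of genes tested had all KO libraries below and 8.16% all above, and the log2 change of -1.50 ± 0.15 (limma adjusted p = 5.88e-05) was undercut by 54 of the genes tested. The opa values were 32.7, 33.1 and 35.1 in KO GFP-positive libraries, against 76.5, 67.0 and 88.7 in WT GFP-positive libraries. The 3 KO libraries lay within a narrow band, with an SD of 1.27, and the log2 change was -1.17 ± 0.13 (limma adjusted p = 0.000162), with 84 genes lower.

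Sequencing lane, named in the library descriptions, differed between the genotypes in replicate 3. Within lane 7, erm had 12.8 and 13.6 in KO GFP-positive libraries, against 41.4 in the WT GFP-positive library. Within lane 6, erm had 18.8 in the KO GFP-positive library, against 49.0 and 40.9 in WT GFP-positive libraries. For opa the lane 7 values were 32.7 and 35.1 in KO GFP-positive libraries and 76.5 in the WT GFP-positive library, and the lane 6 values were 33.1 in the KO GFP-positive library and 67.0 and 88.7 in WT GFP-positive libraries. The direction was the same within each lane for both genes, and both calls held in all 24 alternative analyses.

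For tll, the KO GFP-positive libraries had 5.80, 6.23 and 8.23, against 4.67, 3.76 and 2.68 in WT GFP-positive libraries. The groups do not overlap, where 8.16% of genes tested had all KO libraries above. The tll mean was 1.82-fold higher, at 6.75 ± 1.29 in KO and 3.70 ± 0.998 in WT (SD, n = 3 each). The log2 change of 0.73 ± 0.18 passed narrowly (limma adjusted p = 0.0486) and the call was lost in 19 of 24 alternatives, with adjusted p from 0.00396 to 0.226. The call was lost without any single library other than WT GFP-positive replicate 1, WT GFP-negative libraries included.

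The slp genes and D had lower means in KO GFP-positive cells, and none was called. For slp1, the KO GFP-positive libraries had 3.18, 4.54 and 4.35, against 4.60, 7.15 and 5.35 in WT GFP-positive libraries, a log2 change of -0.41 with a 95% interval of -0.78 to -0.03 before adjustment (limma adjusted p = 0.413). For slp2, the KO GFP-positive libraries had 4.64, 7.21 and 3.80, against 6.79, 8.73 and 6.65 in WT GFP-positive libraries, a log2 change of -0.46 with an interval of -0.85 to -0.08 (limma adjusted p = 0.319). For D, the KO GFP-positive libraries had 410, 294 and 298, against 388, 407 and 441 in WT GFP-positive libraries, a log2 change of -0.32 with an interval of -0.60 to -0.04 (limma adjusted p = 0.377). Without KO GFP-positive replicate 1 the D log2 change was -0.47 and passed (limma adjusted p = 0.0429), and without KO GFP-positive replicate 2 that of slp2 was -0.68 and passed (limma adjusted p = 0.0307).

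Marker sums in GFP-positive cells were compared beside these changes. The neuroblast sums overlap between the genotypes, and 0 of the 8 markers were called in either direction by limma, where 1.75% of all genes tested were called higher and 1.32% lower. DESeq2 called 1 of the 8 higher. ase had 6.44, 5.21 and 7.52 in KO GFP-positive libraries, against 4.88, 3.90 and 3.72 in WT GFP-positive libraries (log2 change 0.51, limma adjusted p = 0.0988). The sums of 9 neuron markers overlap as well, at 9072 to 12291 in KO GFP-positive libraries and 9356 to 11857 in WT GFP-positive libraries. So do those of 8 glial markers, at 432 to 633 in KO and 450 to 457 in WT, of which DESeq2 called 1 higher. The sums of the 5 eye disc markers did not overlap, with 725 to 852 in KO GFP-positive libraries and 893 to 943 in WT GFP-positive libraries, but 0 of the 5 were called in either direction by limma. Most of the sum is eya, with means of 428 in KO and 535 in WT, while gl had means of 108 in KO and 77.8 in WT. The part of these markers in the erm, opa and tll changes was not tested.

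In GFP-negative cells none of the 6 genes was called between the genotypes, by limma, edgeR or DESeq2, and 0 reached an unadjusted p under 0.05 by limma, where 0.434% of genes were called higher and 0.252% lower. The erm log2 change was 0.11 with a 95% interval of -0.22 to 0.44, and that of opa was 0.19 with an interval of -0.10 to 0.48, so falls of the size seen in GFP-positive cells lie outside both intervals. The log2 changes were 0.08 for slp1 and 0.01 for both slp2 and tll. D had 259, 248 and 269 in KO GFP-negative libraries, against 196, 241 and 226 in WT GFP-negative libraries. Every KO library was higher, as for 11.9% of genes tested, with 4.19% the other way, but the log2 change of 0.23 did not pass (limma adjusted p = 0.680).

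Whether the genotype difference itself depended on the fraction was tested as an interaction in the same fit, where 0.272% of genes were called with a negative and 0.282% with a positive interaction. It was called for erm, at -1.61 ± 0.21 (limma adjusted p = 0.00271), and for opa, at -1.36 ± 0.19 (limma adjusted p = 0.00370). The other 4 genes did not pass, with log2 interactions of 0.72 for tll (limma adjusted p = 0.695), -0.55 for D (0.595), -0.49 for slp1 and -0.47 for slp2 (1.00 for both). The erm and opa interactions held in all 23 alternatives in which the term could be fitted.

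**Figure D3:**
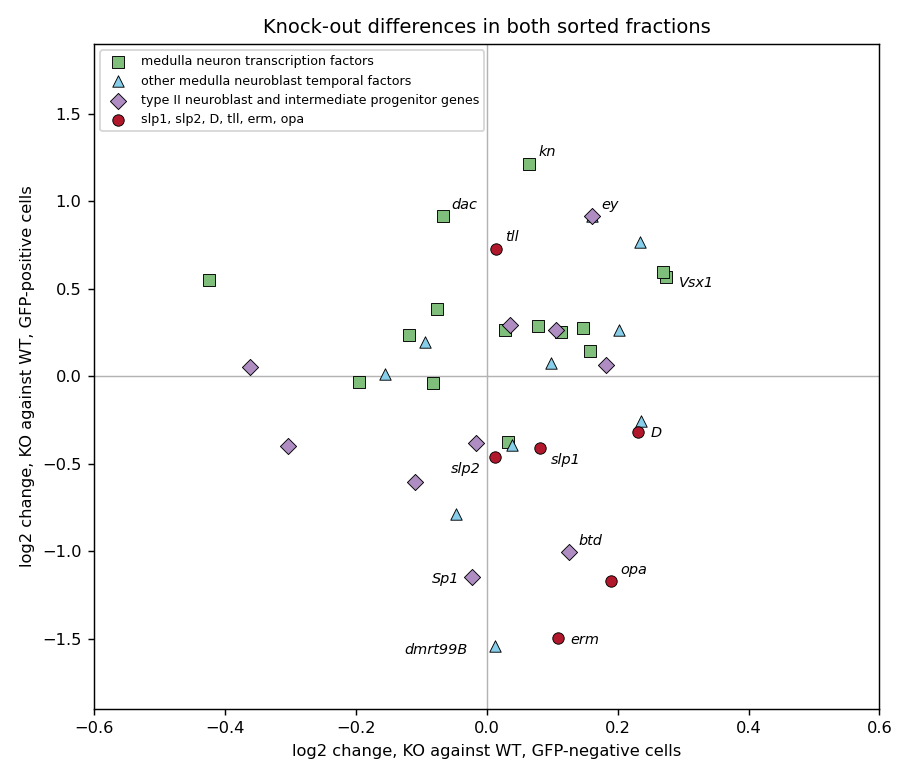
Log2 change between KO and WT in GFP-positive cells (vertical axis) against that in GFP-negative cells (horizontal axis), 1 symbol per gene, for the 6 genes and 3 lists of related genes. The points spread along the vertical axis, with erm (-1.50), dmrt99B (-1.54), opa (-1.17), Sp1 (-1.15) and btd at the bottom and kn (1.22), dac (0.92) and ey (0.92) at the top, while their GFP-negative changes span a narrower range.

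The other factors of the medulla series, 10 of 11 listed with a row, mostly shared the lower level in GFP-positive cells. In WT, 9 were called lower and 1 higher, with a median log2 change of -1.15, and in KO 8 were lower and 1 higher, with a median of -1.75. Over all genes tested, 12.3% were called lower and 25.7% higher in WT, and 12.9% lower and 23.6% higher in KO. The factor that was higher in both genotypes is Dll, a homeodomain gene, with 45.0, 40.5 and 46.1 in KO GFP-positive libraries, 53.0, 52.5 and 51.7 in WT GFP-positive libraries, 23.2, 25.6 and 28.3 in KO GFP-negative libraries and 22.7, 18.8 and 23.6 in WT GFP-negative libraries. The first factor of the series, hth, kept more of its level than the slp genes, with a mean 1.58-fold lower in KO GFP-positive than in KO GFP-negative cells and 1.77-fold lower in WT GFP-positive than in WT GFP-negative cells.

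Between the genotypes in GFP-positive cells, 1 of those 10 rose and 1 fell, beside a median log2 change of 0.04. Over all genes tested, 1.75% were called higher and 1.32% lower. The gene that rose is ey, the Pax6 homolog that precedes slp in the medulla and closes the intermediate progenitor series. It had 130, 122 and 111 in KO GFP-positive libraries, against 63.0, 64.5 and 62.9 in WT GFP-positive libraries, a log2 change of 0.92 ± 0.09 (limma adjusted p = 5.36e-05). The gene that fell is dmrt99B, a doublesex-related factor, with 21.2, 15.8 and 26.7 in KO GFP-positive libraries, against 60.6, 66.5 and 60.3 in WT GFP-positive libraries, a log2 change of -1.54 ± 0.20 (limma adjusted p = 0.000427). Neither pair of groups overlaps, where 8.16% of genes tested had all KO libraries above and 5.94% all below. The interaction was called for both, at 0.75 for ey (limma adjusted p = 0.0186) and -1.56 for dmrt99B (limma adjusted p = 0.0236), but leaving out 1 library lost the call in 7 of 12 cases for ey and 8 of 12 for dmrt99B. The hth level did not separate the genotypes, with 193, 215 and 196 in KO GFP-positive libraries and 195, 227 and 180 in WT GFP-positive libraries.

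Of 10 genes of type II neuroblasts and their intermediate progenitors, 8 were called lower in GFP-positive cells in WT and 8 in KO, and 0 higher by limma in either. The all-gene shares were 12.3% lower and 25.7% higher in WT, and 12.9% lower and 23.6% higher in KO. Between the genotypes they were 1.75% higher and 1.32% lower. Between the genotypes in GFP-positive cells, ey was the 1 called higher and 2 were called lower, the related zinc finger genes btd, known to help specify type II neuroblasts, and Sp1. The btd values were 11.0, 8.15 and 9.24 in KO GFP-positive libraries, against 20.7, 17.2 and 22.0 in WT GFP-positive libraries (2.11-fold lower; limma adjusted p = 0.00167). The Sp1 values were 11.0, 12.5 and 17.9 in KO GFP-positive libraries, against 30.4, 31.3 and 31.8 in WT GFP-positive libraries (log2 change -1.15 ± 0.16; limma adjusted p = 0.00113). Both genes lay lower in every KO library than in any WT library, as erm, opa and 5.94% of all genes tested did.

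The other genes of that list did not pass between the genotypes. ham, which limits how long intermediate progenitors last, had 32.7, 39.3 and 35.5 in KO GFP-positive libraries and 29.0, 37.1 and 36.9 in WT GFP-positive libraries. grh, the middle factor of the intermediate progenitor series, had 1.91, 2.12 and 7.29 in KO GFP-positive libraries and 6.21, 3.62 and 6.87 in WT GFP-positive libraries. pnt, the ETS factor that marks the type II lineage, had 4.38, 4.15 and 6.50 in KO GFP-positive libraries and 5.74, 4.23 and 4.27 in WT GFP-positive libraries. All 3 pairs of groups overlap.

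Among 15 transcription factors of medulla neurons, 3 were called higher in KO GFP-positive than in WT GFP-positive cells and 0 lower by limma, with a median log2 change of 0.27. Over all genes tested, 1.75% were called higher and 1.32% lower. The gene dac, dachshund, had 240, 262 and 246 in KO GFP-positive libraries, against 123, 147 and 125 in WT GFP-positive libraries (log2 change 0.92 ± 0.09; limma adjusted p = 6.58e-05). The gene kn, knot, had 78.0, 75.1 and 77.4 in KO GFP-positive libraries, against 26.2, 34.8 and 37.5 in WT GFP-positive libraries (log2 change 1.22 ± 0.14; limma adjusted p = 0.000228). The third, Vsx1, had a log2 change of 0.57 (limma adjusted p = 0.0344), which was lost in 12 of 24 alternatives. bsh, a homeodomain gene of the earliest-born medulla neurons, was not called, with 78.9, 61.3 and 74.4 in KO GFP-positive libraries and 89.4, 88.0 and 101 in WT GFP-positive libraries.

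The spatial factors that pattern the neuroepithelium before neuroblasts form gave 2 higher and 0 lower by limma of 8 tested, Vsx1 and salm, a spalt zinc finger gene. The all-gene shares were again 1.75% higher and 1.32% lower. The salm values were 94.7, 106 and 87.8 in KO GFP-positive libraries, against 49.0, 37.8 and 44.1 in WT GFP-positive libraries (log2 change 1.13 ± 0.12; limma adjusted p = 0.000116). In GFP-negative cells 0 genes of these 4 lists were called between the genotypes by limma, where only 0.434% of all genes tested were called higher and 0.252% lower.

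The closest paralogs of each factor were also followed. Of 11 fork head paralogs of slp1 and slp2 tested, 2 rose in KO GFP-positive against WT GFP-positive cells. Over all genes tested, 1.75% were called higher and 1.32% lower. fd59A had 284, 278 and 267 in KO GFP-positive libraries, against 175, 176 and 166 in WT GFP-positive libraries (log2 change 0.68 ± 0.12; limma adjusted p = 0.00522). fkh had 6.66, 6.90 and 6.97 in KO GFP-positive libraries, against 3.63, 4.13 and 2.86 in WT GFP-positive libraries (log2 change 0.80 ± 0.14; limma adjusted p = 0.0065). Of the nuclear receptors nearest to tll, Hr51, known as unfulfilled, rose and dsf did not pass. Hr51 had 7.75, 5.84 and 9.99 in KO GFP-positive libraries, against 1.97, 1.44 and 1.08 in WT GFP-positive libraries (log2 change 1.82 ± 0.19; limma adjusted p = 9.07e-05). Every KO library was well above every WT library, where 8.16% of genes tested had all KO libraries above. The Hr51 interaction was 1.72 (limma adjusted p = 0.0120), and its call was lost in 1 of 23 alternatives. The 6 Sox genes and the 5 relatives of scro and opa had 0 calls by limma between the genotypes.

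To compare levels between genes, values were divided by exon length in kilobases. In KO GFP-positive cells the order was D at 114 ± 22.4, opa at 11.4 ± 0.433, erm at 4.57 ± 0.991, tll at 3.44 ± 0.659, slp1 at 2.82 ± 0.517 and slp2 at 2.22 ± 0.757 normalised reads per kilobase (SD, n = 3). In WT GFP-positive cells it was D at 140 ± 9.01, opa at 26.3 ± 3.69, erm at 13.3 ± 1.38, slp1 at 4.00 ± 0.922, slp2 at 3.15 ± 0.497 and tll at 1.88 ± 0.508. The steps from D to opa and from opa to erm exceed the spread in both groups, and so do those from erm to slp1 and from slp2 to tll in WT. The other neighbours differ by about their spread or less. By its mean tll stood last in WT GFP-positive cells and ahead of both slp genes in KO GFP-positive cells, where its lead over slp1 is within the spread.

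In GFP-negative cells the genes lay closer together. In KO GFP-negative cells the order was D at 88.1 ± 3.51, opa at 86.2 ± 11.5, slp2 at 70.4 ± 6.57, slp1 at 47.2 ± 4.37, erm at 40.5 ± 6.22 and tll at 28.2 ± 3.83 normalised reads per kilobase. In WT GFP-negative cells it was opa at 75.6 ± 10.4, D at 75.2 ± 7.82, slp2 at 69.6 ± 1.98, slp1 at 44.7 ± 5.64, erm at 37.2 ± 1.86 and tll at 27.7 ± 1.26. D and opa do not differ beyond their spread in either genotype, and slp2 lay above slp1 in both, the reverse of the order in GFP-positive cells. The ranks were the same with the longest transcript as the length.

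**Figure D4:**
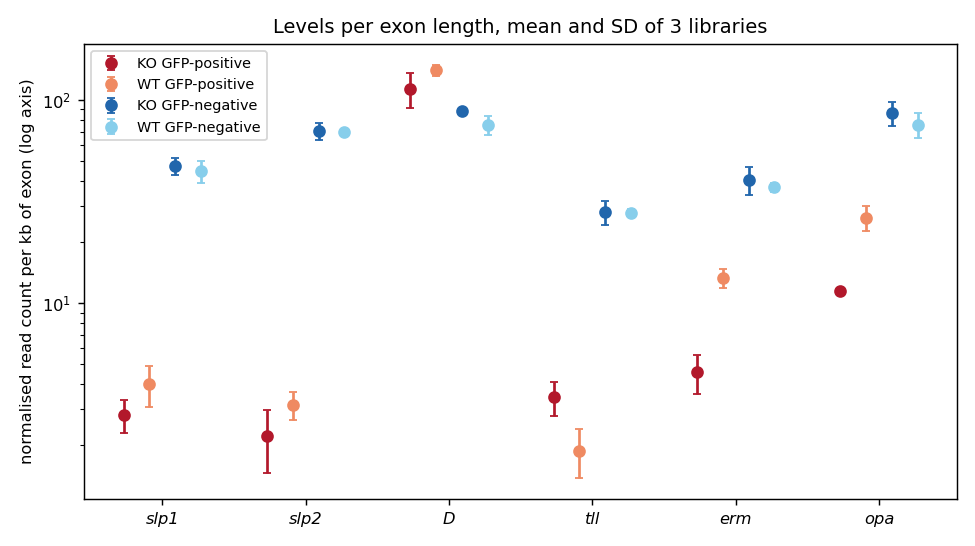
Mean level per kilobase of exon, with the SD of 3 libraries, for the 6 genes in each group on a log axis. In GFP-positive cells the genes run from D at 114 (KO) and 140 (WT) down to 2.22 (slp2, KO) and 1.88 (tll, WT), and in GFP-negative cells from 88.1 (D, KO) and 75.6 (opa, WT) down to 28.2 and 27.7 (tll).

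The balance within the slp pair was taken as the ratio of slp2 to slp1 per kilobase. It was 0.886, 0.963 and 0.531 in KO GFP-positive libraries and 0.897, 0.742 and 0.755 in WT GFP-positive libraries, against 1.33, 1.43 and 1.74 in KO GFP-negative libraries and 1.38, 1.79 and 1.56 in WT GFP-negative libraries. All 6 GFP-positive libraries had more slp1 than slp2 per kilobase and all 6 GFP-negative libraries less. The mean log2 difference was -0.97 for GFP-positive minus GFP-negative within genotype. An exact two-sided permutation test, chosen after the ratios were seen, gave p = 0.005, the smallest that 400 arrangements allow. After Benjamini-Hochberg adjustment over 10 ratio tests it was 0.05, which is not under the threshold. The separation was known by then, so this p adds no support beyond the values. The ratio did not separate KO from WT within fractions (mean log2 difference -0.06; exact permutation p = 0.735).

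The ratio of opa to erm per kilobase asked whether those genes fell in proportion. It was 2.87, 1.98 and 2.90 in KO GFP-positive libraries, against 2.07, 1.53 and 2.43 in WT GFP-positive libraries, and these overlap. The mean log2 difference was 0.36 (exact permutation p = 0.3, where 3 against 3 cannot go below 0.1), and the design is too small to show that the falls were equal.

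**Figure D5:**
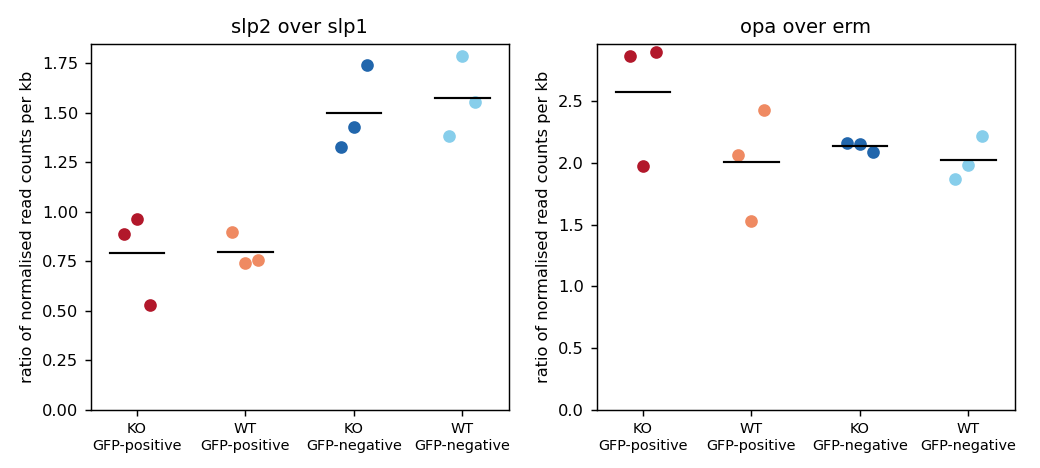
Ratio of slp2 to slp1 and of opa to erm per kilobase in each library, with KO and WT GFP-positive libraries set before KO and WT GFP-negative libraries and bars at the means. The slp2 to slp1 ratio is below 1 in the 6 GFP-positive libraries and 1.33 or more in the 6 GFP-negative libraries, and the opa to erm ratio overlaps between the groups.

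The genes most like each factor over the 12 libraries were found by Pearson's r of log2 values, given as a description, since the libraries share the split by fraction and the normalisation. For slp1 they were slp2 (r = 0.995), sna (0.994) and vnd (0.994), and for slp2 they were sna (0.996), slp1 (0.995) and pbl (0.994). For tll they were fkh (0.995), Cap-D2 (0.994) and Inx3 (0.994). For erm they were opa (0.985), CG13895 (0.978) and btd (0.975), and for opa they were btd (0.992), spn-A (0.986) and erm (0.985). For D they were CG4080 (0.981), Gga (0.975) and p47 (0.966). sna is a Snail-family zinc finger gene, vnd an NK2 homeobox gene of neural patterning and pbl a gene needed for cell division. The likeness of erm, opa and btd covers both the lower level in GFP-positive cells and the further fall in KO. CG13895 and spn-A shared both. Between the genotypes in GFP-positive cells CG13895 had a log2 change of -0.94 (limma adjusted p = 0.00182) and spn-A of -1.03 (limma adjusted p = 0.0140). For tll, fkh was also higher in KO GFP-positive than in WT GFP-positive cells, as given above. In that comparison Inx3 had a log2 change of 0.59 (limma adjusted p = 0.0569) and Cap-D2 of 0.32 (limma adjusted p = 0.769).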

How the data were processed

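Each of 12 libraries (4 groups of 3) was prepared with SMARTer Ultra Low and Nextera kits, which do not mark strand, per the labels' protocols. The authors deposited a signal per gene, normalised read counts for 12610 genes. TopHat2 2.0.13, HTSeq 0.6.1, edgeR 3.10.5 and build BDGP6 are named in the submitters' processing notes, without roles. Column totals ran from 807057 to 1264329. Every value was a whole multiple (within 0.001 reads) of what 1 read is worth, so reads were recovered for the count tests that served as alternatives.

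Identifiers were named from Ensembl's BDGP6 annotation (12389 named, 221 not). The 9912 genes that reached 1 in 3 or more libraries were tested on log2(value + 1) with limma 3.58.1 in R 4.3.3, in one fit of 4 group means, two-sided, with Benjamini-Hochberg adjustment over all tested genes and a threshold of 0.05. Log2 changes on this scale understate those of low genes, and folds are ratios of group means. edgeR 4.0.16 and DESeq2 1.42.0, other scalings, filters and pseudocounts, lane, replicate number and each library left out were alternatives. The code was tested on simulated data.

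The 7 genes and all lists were chosen with earlier results of these data known, and the ratio tests after their values were seen. The genes were always named, lists by up to 4 members with the smallest p in a comparison, and likeness by the top 3 genes with a mean of at least 5. In comparisons where that rule does not place them, Dll, hth, ham, grh, pnt and bsh were named for their role after values were seen. Sequences were not used here.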

Additional observations from a re-analysis of the deposited data

Results flagged for a closer look

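The genotype difference of erm and of opa was itself different between the fractions by the test of the interaction. That set them apart from slp1, slp2, D and tll, but not from all listed genes. The interaction was also called for ey, dmrt99B, Hr51 and Fas2. It was called as well for btd at -1.13 (limma adjusted p = 0.0355) and dac at 0.98 (limma adjusted p = 0.00299). So it was for kn at 1.15 (limma adjusted p = 0.0236) and salm at 0.93 (limma adjusted p = 0.0324). For erm the log2 interaction was -1.61 (limma adjusted p = 0.00271), with the level lower in all 3 KO GFP-positive libraries than in any WT GFP-positive library. For opa it was -1.36 (limma adjusted p = 0.00370), again lower in all 3 KO GFP-positive libraries.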

How the results depend on the processing

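Over 714 values of the 6 genes under alternatives, 685 kept their direction and call, 19 lost the call (all tll in KO GFP-positive against WT GFP-positive cells), 10 gained one and 0 reversed in limma, edgeR or DESeq2. The number of the 6 genes called higher in KO GFP-positive against KO GFP-negative cells became 1 (D), in place of 0, with a pseudocount of 5, a filter at 5, lane as a covariate, the replicate block or without the 2 libraries richest in ribosomal RNA, and ranged from 0 to 1 with each library left out. In KO GFP-positive against WT GFP-positive cells it became 0, in place of 1 (tll), with a pseudocount of 5, no filter, quantile scaling, equal column totals, only the 2 groups compared, lane, edgeR and without those 2 libraries (0 to 1 with each library left out), and the number called lower ranged from 2 to 3. The cause was not tested.

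All genes called in KO GFP-positive against WT GFP-positive cells numbered 304, against 187 with only the 2 groups, 475 with the replicate block, 505 with DESeq2 and 203 to 332 with each library left out. For KO GFP-negative against WT GFP-negative cells 68 became 153 with DESeq2 (49 to 71). For the interaction 55 became 101 with the block and 116 with DESeq2 (34 to 51, the lowest without KO GFP-negative replicate 1). Between the fractions the ranges were 2962 to 3872 in WT and 2682 to 3944 in KO. Equal column totals moved the median log2 change of all genes to -0.18 in WT and -0.13 in KO between fractions, and turned that of Fas2 in WT to -0.031.

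Same-numbered libraries correlated from -0.335 to 0.604 (median 0.306, 15 of 18 above 0.1) and others at a median of -0.133 (5 of 36 above 0.1), and 10 of 12 libraries were closest to their own number, a hint of shared runs. The numbers were not taken as pairs, since 3 of 18 pairs were not above 0.1 and the labels do not say that a number marks a shared batch. The opa to erm ratio was higher in the KO GFP-positive than in the same-numbered WT GFP-positive library in 3 of 3 cases. The block changed no other call of the 6 genes. Low reads limit slp1, slp2 and tll in GFP-positive cells, 72 to 210 per library.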
